A study of Mus musculus with 30 samples.

Results

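Collagen genes were followed in RNA from the small bowel muscularis externa (*ME*) of mice without an operation and after intestinal manipulation (IM), a surgical handling of the bowel that causes postoperative ileus. The members were all genes whose symbol reads Col, a type number, the letter a and a chain number. There were 44 of them among the 24601 genes of total *ME* RNA and 42 among the 26179 genes of the *RiboTag* fraction, whose tables had no entry for *Col6a6* and *Col9a1*. By type, 11 were fibrillar collagens, 8 basement membrane collagens, 6 chains of the microfibrillar collagen VI, 9 fibril-associated collagens, 3 network-forming collagens VIII and X, 4 transmembrane collagens and 3 others.

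In *RiboTag* mice a Cre-dependent *Rpl22* allele (Rpl22tm1.1Psam/J) adds an HA tag to a ribosomal protein, so that mRNA on the ribosomes of Cre-expressing cells can be pulled down. Unoperated (naïve) mice were compared with mice killed after 3 h (IM3h), 24 h (IM24h) or 72 h (IM72h), and the study's methods give male mice of 10 to 12 weeks. All *RiboTag* libraries came from the Sox10-icre/ERT2 line, in which tamoxifen activates Cre in *Sox10*-expressing cells, in the gut the enteric glia. Total *ME* RNA of naïve and IM3h mice came from a Gfap-cre line (B6.Cg-Tg73.12Mvs/J) and that of IM24h and IM72h mice from the Sox10-icre/ERT2 line (B6 Tg(Sox10-icre/ERT2)388Wdr/J). The tables held 3 naïve, 3 IM3h, 4 IM24h and 4 IM72h *ME* libraries, and 3 naïve, 4 IM3h, 4 IM24h and 4 IM72h *RiboTag* libraries. Library names started with 106 in naïve and IM3h *ME*, with 109 in IM72h *ME* and with 112 in all other groups. Between naïve *ME* and IM24h or IM72h *ME*, the time after IM, the Cre line and the range of names therefore cannot be told apart.

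Library totals were 6603170 to 12866062 estimated counts in *ME* and 3010306 to 7899493 in *RiboTag*. The transcript AY036118, derived from rRNA, took 16.1 to 33.5% of naïve and IM3h *ME* libraries and 1.33 to 6.5% of IM24h and IM72h *ME* libraries, without overlap, and TMM factors were 0.701 to 0.898 and 1.15 to 1.29 in the same libraries. This split moves with every comparison of IM24h or IM72h with naïve *ME*, and its part in those results was tested only by leaving the transcript out and by other scalings. In *RiboTag* the transcript took 2.02 to 14.0% of naïve and IM3h libraries, 22.2 to 59.2% at IM24h and 58 to 80.1% at IM72h. Pearson's r across genes between libraries of a group was at least 0.910 in *ME*, 0.837 to 0.937 in naïve and IM3h *RiboTag*, 0.551 to 0.808 in IM24h *RiboTag* and 0.238 to 0.368 in IM72h *RiboTag*, so values of the late *RiboTag* groups are far less precise. All 8 glial markers were higher in naïve *RiboTag* than in naïve *ME* (*Sox10* by 5.76 on the log2 scale, adjusted p = 4.18e-05, edgeR). Smooth muscle markers (5274 to 8088 CPM in sum), fibroblast markers (289 to 412 CPM) and mesothelial markers (112 to 290.3 CPM) were also present in naïve *RiboTag*, which is thus an enriched and not a pure glial fraction. CPM are counts scaled to a common library size after scaling by TMM factors, which centre the bulk of genes. Reads came from the 3′ ends of transcripts, so levels are compared between groups and not between genes.

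Collagens are matrix proteins in which 3 chains wind into a triple helix. Fibrillar collagens I and III, with collagen V at the core of the fibril, carry tension, and fibril-associated collagens coat the fibril surface. Collagen IV builds the network of basement membranes, where collagens XV and XVIII also lie, and collagen VI forms microfilaments close to cells. In the gut wall, fibroblasts and smooth muscle cells make much of this matrix, and new collagen is laid down during repair.

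On GRCm38 (GENCODE vM21), *Col1a1* lies at chr11:94936224-94953042 on the plus strand and *Col6a3* at chr1:90765923-90843971 on the minus strand. *Col4a1* (chr8:11198423-11312826, minus strand) and *Col4a2* (chr8:11312805-11449287, plus strand), which encode the common chains of collagen IV, overlap at their first bases and start 21 bases apart in opposite directions. Among the genes described most, *Col1a2*, *Col3a1*, *Col5a2*, *Col6a3*, *Col4a1*, *Col20a1*, *Col7a1*, *Col24a1*, *Col25a1* and *Col27a1* overlap another annotated gene on the same strand, with which reads could be shared. Promoter windows of RefSeq on GRCm38.p6, from 250 bases before to 50 after the start site, were found for 35 of the 44 genes. Those of 5 genes are printed because *Col1a2* and *Col3a1* fell in both fractions at IM3h, *Col5a1* rose at IM72h in *ME*, and the neighbours *Col4a1* and *Col4a2* differed in the call at IM24h and IM72h. Capitals mark matches, on either strand, to the letters TATAAA of the TATA box, CCAAT of the CCAAT box, GGGCGG of the GC box and TGANTCA, which AP-1 binds. The letters ATTGG stand for a CCAAT box on the opposite strand and CCGCCC for a GC box there, and no marked match overlaps another.
*Col1a2*, chr6:4505368-4505667, plus strand: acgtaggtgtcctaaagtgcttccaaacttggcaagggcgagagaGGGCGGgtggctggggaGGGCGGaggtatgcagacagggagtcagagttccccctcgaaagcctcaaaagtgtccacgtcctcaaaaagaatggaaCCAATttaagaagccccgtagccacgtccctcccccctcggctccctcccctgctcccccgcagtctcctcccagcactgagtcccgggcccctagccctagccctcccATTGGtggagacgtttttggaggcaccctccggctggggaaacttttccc
*Col3a1*, chr1:45311288-45311587, plus strand: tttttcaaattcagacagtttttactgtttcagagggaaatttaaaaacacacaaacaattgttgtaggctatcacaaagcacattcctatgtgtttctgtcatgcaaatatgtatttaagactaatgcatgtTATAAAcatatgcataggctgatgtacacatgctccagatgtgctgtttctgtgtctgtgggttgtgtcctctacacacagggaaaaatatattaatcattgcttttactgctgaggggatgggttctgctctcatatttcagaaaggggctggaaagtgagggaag
*Col5a1*, chr2:27886175-27886474, plus strand: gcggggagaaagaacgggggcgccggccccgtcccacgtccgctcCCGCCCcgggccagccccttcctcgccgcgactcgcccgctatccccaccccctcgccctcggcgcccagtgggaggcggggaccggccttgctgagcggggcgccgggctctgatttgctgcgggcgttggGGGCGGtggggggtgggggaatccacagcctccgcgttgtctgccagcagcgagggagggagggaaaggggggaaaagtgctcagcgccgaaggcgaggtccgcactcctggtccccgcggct
*Col4a1*, chr8:11312777-11313076, minus strand: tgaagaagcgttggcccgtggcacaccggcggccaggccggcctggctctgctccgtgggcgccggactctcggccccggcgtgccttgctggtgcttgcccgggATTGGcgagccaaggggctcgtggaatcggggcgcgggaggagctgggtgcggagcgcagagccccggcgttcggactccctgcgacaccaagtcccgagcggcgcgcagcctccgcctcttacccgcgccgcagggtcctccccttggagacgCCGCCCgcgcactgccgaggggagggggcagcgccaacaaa
*Col4a2*, chr8:11312555-11312854, plus strand: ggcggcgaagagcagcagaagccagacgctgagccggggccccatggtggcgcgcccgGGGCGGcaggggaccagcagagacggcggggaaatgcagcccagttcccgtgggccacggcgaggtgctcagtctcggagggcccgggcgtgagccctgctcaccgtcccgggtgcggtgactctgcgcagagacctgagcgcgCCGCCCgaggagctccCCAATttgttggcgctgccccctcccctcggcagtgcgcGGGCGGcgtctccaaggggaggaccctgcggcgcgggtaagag

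The windows of *Col4a1* and *Col4a2* share 78 bases, and the GGGCGG just after both starts is 1 stretch read from either strand. Among the 38 collagen windows, 23 held GGGCGG (60.5%), against 35.7% of all 32851 windows. CCAAT was found in 34.2% of collagen windows and 37.4% of all, TATAAA in 13.2% and 13.6%, and TGANTCA in 2.63% and 7.81%. Of the printed windows, *Col1a2*, *Col4a1* and *Col4a2* hold CCAAT and GGGCGG, *Col5a1* holds GGGCGG and *Col3a1* holds TATAAA. These are descriptions of the letters, not of bound sites.

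The first comparison addressed which collagen mRNAs sit on ribosomes of *Sox10*-expressing cells. In naïve mice 14 of 31 collagen genes tested were higher in *RiboTag* than in total *ME* and 5 were lower (edgeR's quasi-likelihood test, Benjamini-Hochberg adjusted p under 0.05), where 26.1% of all genes were called, 13.4% higher and 12.7% lower. By a rule of the study, an unadjusted p under 0.05 with a change over 2-fold, 13 were higher and 2 lower (14.1% and 11.5% of all genes), and 14 were higher and 10 lower without overlap between the groups (20.3% and 28.0% of all genes). *Col9a2*, *Col11a1*, *Col20a1* and *Col18a1* were 15.4- to 18.0-fold higher. Chains of collagens I, IV and VI were among the 5 that were lower. Naïve libraries of the fractions came from different Cre lines, which cannot be told apart from the fraction. In bulk RNA, here and throughout, fewer cells of a type and less RNA per cell cannot be told apart.

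*Col18a1*, which encodes a basement membrane collagen with an endostatin domain, measured 302.4, 378 and 290.9 CPM in *RiboTag* and 21.5, 23.4 and 23.1 CPM in *ME*, with both fractions scaled together. *Col9a2*, a chain of the fibril-associated collagen IX known from cartilage, measured 154.9, 88.7 and 102.2 CPM and then 6.89, 7.30 and 6.64 CPM. The libraries of the fractions lay far apart for both genes. The log2 ratio was 3.95 ± 0.18 (SE) for *Col18a1* (adjusted p = 3.81e-05, edgeR) and 4.17 ± 0.26 for *Col9a2* (adjusted p = 4.74e-05, edgeR). Here and throughout, the SE was worked out from the log2 change and the F value of the test. The 95% intervals were taken from the SE by the normal distribution. With so few libraries they are too narrow, and can exclude a lack of change where the unadjusted p was above 0.05.

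*Col11a1*, a chain of the minor fibrillar collagen XI, measured 86.6, 63.03 and 72.6 CPM in *RiboTag* and 4.33, 4.03 and 5.40 CPM in *ME* (log2 ratio 4.11 ± 0.23, adjusted p = 4.18e-05, edgeR). *Col20a1*, a fibril-associated collagen, measured 34.7, 35.0 and 30.8 CPM and then 2.0, 1.92 and 2.59 CPM (log2 ratio 4.04 ± 0.28, adjusted p = 8.10e-05, edgeR). Neither gene had overlapping libraries. Of 5 fibril-associated collagens tested, 4 were higher and none lower, the others being *Col12a1* (log2 ratio 2.32 ± 0.21) and *Col16a1* (1.95 ± 0.22). Among 9 fibrillar genes 5 were higher and 1 lower, with *Col5a3* at 1.76 ± 0.24, *Col27a1* at 1.33 ± 0.23 and *Col5a1* at 0.74 ± 0.20.

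Of the basement membrane genes, *Col4a4*, a chain of specialised basement membranes (2.28 ± 0.28), and *Col15a1* (1.48 ± 0.22) were also higher, as was *Col8a1*, a chain of the short-chain collagen VIII (1.54 ± 0.20). *Col11a2* and *Col28a1* held 15 to 36 and 13 to 31 counts in *RiboTag* libraries and at most 3 counts in any *ME* library, and no fold is given. *Col4a1* measured 191.4, 152.9 and 171.7 CPM in *RiboTag* and 429.9, 405.0 and 443.2 CPM in *ME* (log2 ratio -1.20 ± 0.15, adjusted p = 0.000973, edgeR). All its *RiboTag* libraries lay under all *ME* libraries.

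The other genes that were lower were *Col23a1*, a transmembrane collagen (log2 ratio -1.19 ± 0.21), *Col6a2* (-0.90 ± 0.27), *Col6a3* (-0.77 ± 0.16) and *Col1a1* (-0.76 ± 0.15). *Col1a2* (-0.38 ± 0.19), *Col3a1* (-0.37 ± 0.14), *Col5a2* (-0.44 ± 0.15), *Col4a2* (-0.36 ± 0.21) and *Col6a1* (-0.26 ± 0.20) did not pass the test (adjusted p = 0.0646 to 0.367, edgeR). Of 7 fibroblast markers tested, *Lum*, *Dcn*, *Dpt* and *Pdgfra* were lower (log2 ratios -2.97, -1.84, -1.63 and -1.52), *Cd34*, *Clec3b* and *Mfap5* did not pass (0.09, 0.14 and -0.80), and *Pi16* was not tested. With each fraction scaled on its own, smooth muscle markers summed to 22950 to 23870 CPM in naïve *ME* and 5274 to 8088 CPM in naïve *RiboTag*. Endothelial and pericyte markers summed to 4486 to 4909 and 903 to 1581 CPM. Sums for interstitial cells of Cajal and macrophages were also lower without overlap, glial sums were higher, and those of neurons, mesothelium and epithelium overlapped. The part of all these markers in the lower collagen values was not tested.

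With library totals in place of TMM, 14 collagen genes were higher and 0 lower, while the median of all genes moved to 0.73. With all groups in 1 fit, 3 were higher and 0 lower. *Col5a1*, *Col6a2*, *Col11a2* and *Col28a1* lost their call without any 1 of naïve *ME* libraries 1, 2 and 3 or *RiboTag* library 3 (adjusted p = 0.0505 to 0.215, edgeR), *Col5a1* and *Col6a2* also without *RiboTag* library 2, and *Col6a3* without *ME* library 3 (adjusted p = 0.0503, edgeR).

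**Figure D1:**
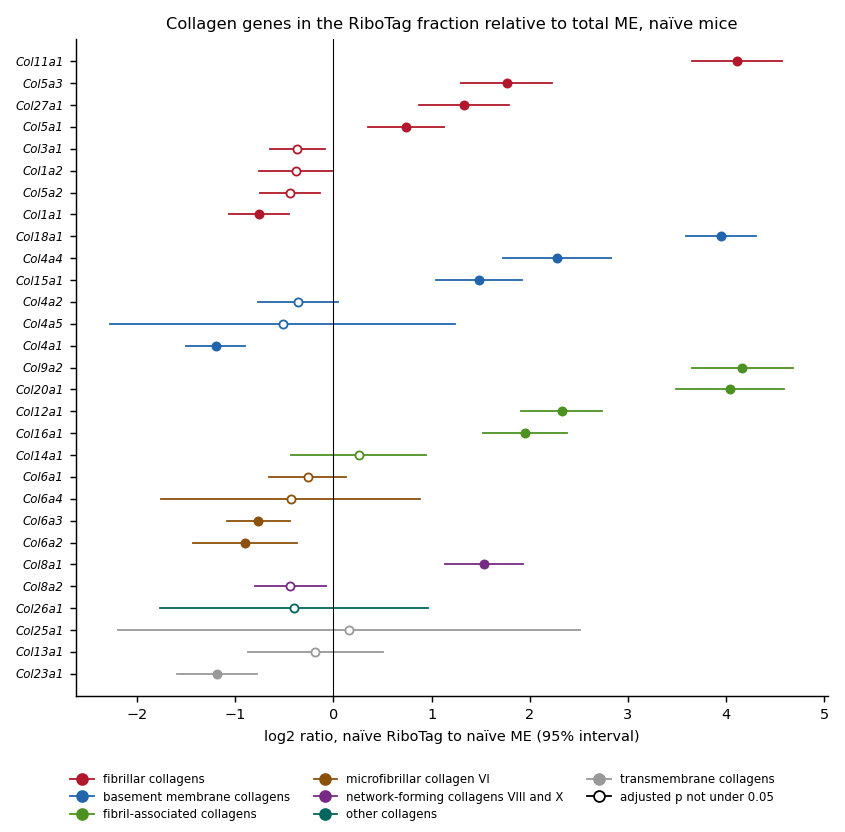
Log2 ratio of naïve *RiboTag* to naïve *ME* (x axis) with approximate 95% intervals for 29 tested collagen genes, grouped by type. Filled points passed the test, and *Col11a1*, *Col9a2*, *Col20a1* and *Col18a1* stand farthest to the right, near a log2 ratio of 4.

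The second comparison followed collagen RNA in total *ME* after the operation. At IM3h 9 of 30 collagen genes tested fell and 2 rose (edgeR, adjusted p under 0.05), where 32.7% of all genes were called, 13.4% lower and 19.3% higher. Chains of the main fibrils, *Col1a1*, *Col1a2*, *Col3a1* and *Col5a2*, made up 4 of the 9 falls. By the study's rule 5 were lower and 1 higher (7.14% and 11.3% of all genes), and 15 lay lower and 4 higher without overlap between the groups (25.8% and 22.7% of all genes). The median log2 fold change of the 30 genes was -0.32, against 0.00 for all genes. Naïve and IM3h mice shared the Cre line and the range of library names.

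*Col3a1*, the chain of collagen III, measured 412.2, 439.6 and 412.5 CPM in naïve *ME* and 98.9, 109.5 and 114.0 CPM at IM3h. *Col1a1*, the major chain of collagen I, measured 441.5, 416.6 and 470.1 CPM and then 121.2, 192.5 and 155.9 CPM. Every IM3h library lay far under every naïve library for both genes. *Col3a1* fell 3.75-fold (log2 -1.91 ± 0.11, adjusted p = 1.33e-06, edgeR) and *Col1a1* 2.70-fold (log2 -1.44 ± 0.15, adjusted p = 6.61e-05, edgeR).

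*Col1a2*, the partner chain in collagen I, went from 674.0, 711.2 and 693.9 CPM to 282.8, 362.1 and 385.5 CPM (log2 -0.95 ± 0.13, adjusted p = 0.000334, edgeR). *Col14a1*, which coats fibrils, went from 21.7, 28.2 and 27.7 CPM to 6.44, 9.67 and 8.30 CPM (log2 -1.60 ± 0.21, adjusted p = 0.000272, edgeR). Neither gene had overlapping groups. *Col5a2* (log2 -0.75 ± 0.11), *Col6a3* (-0.48 ± 0.11), *Col4a4* (-2.64 ± 0.69) and the transmembrane collagens *Col13a1* (-0.88 ± 0.21) and *Col23a1* (-0.69 ± 0.14) also fell.

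*Col5a1* stood at -0.01 ± 0.14 with a 95% interval from -0.28 to 0.26, although its partner chain *Col5a2* fell. *Col4a1* (-0.24 ± 0.10), *Col4a2* (-0.12 ± 0.10), *Col6a1* (-0.38 ± 0.13) and *Col6a2* (-0.29 ± 0.12) did not pass the test (adjusted p = 0.0521 to 0.409, edgeR). The 2 genes that rose were *Col18a1*, from 23.2, 25.3 and 24.6 CPM to 29.9, 37.5 and 38.8 CPM (log2 0.60 ± 0.15, adjusted p = 0.0105, edgeR), and *Col11a2*, from 0 to 3 counts in naïve libraries to 18 to 42 counts.

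The 8 fibroblast markers summed to 1382 to 1454 CPM in naïve *ME* and 879 to 947 CPM at IM3h, none was at 0, and 4 of 7 tested fell (*Cd34*, *Dcn*, *Clec3b* and *Pdgfra*). The 6 mesothelial markers summed to 135.5 to 167.6 and then 15.2 to 62.3 CPM, and 5 fell. Smooth muscle markers went from 22950 to 23870 CPM to 16650 to 19620 CPM, and markers of interstitial cells of Cajal from 353 to 370 CPM to 248.8 to 262 CPM, also without overlap. Macrophage markers (203 to 231 and then 172 to 194 CPM) and neuronal markers (505 to 546 and 429 to 488 CPM) were lower, and neutrophil markers (0.480 to 0.831 and 18.8 to 28.0 CPM) and those of proliferating cells (10.4 to 20.0 and 20.5 to 26.0 CPM) higher, again without overlap. The part of these markers in the fall of collagen RNA was not tested. Scaling by the study's 3 reference genes gave 19 falls and 1 rise, with the median of all genes at -0.41, and library totals gave 15 falls and 1 rise, with that median at -0.26. *Col18a1* lost its call without naïve library 1 (adjusted p = 0.0619, edgeR) and *Col4a4* without IM3h library 2 (adjusted p = 0.0570, edgeR).

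At IM24h in *ME* 4 of 34 collagen genes tested were higher than in naïve mice and 5 lower, where 29.0% of all genes were called, 15.6% higher and 13.4% lower. By the study's rule 2 were higher and 6 lower (12.1% and 11.3% of all genes), and 9 were higher and 8 lower without overlap (20.6% and 20.1% of all genes). *Col8a2*, the partner of *Col8a1* in collagen VIII, measured 61.5, 73.3 and 53.5 CPM in naïve *ME* and 3.67, 3.01, 6.80 and 9.28 CPM at IM24h. No library overlapped, and the gene was 11.2-fold lower (log2 -3.48 ± 0.35, adjusted p = 0.000167, edgeR). *Col9a2* (log2 -2.08 ± 0.44), *Col23a1* (-2.03 ± 0.43), *Col27a1* (-1.13 ± 0.24) and *Col5a3* (-0.92 ± 0.27) were lower as well.

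*Col6a3*, the long chain of collagen VI, measured 234.3, 198.7 and 240.7 CPM in naïve *ME* and 576.0, 474.0, 329.0 and 427.4 CPM at IM24h. All IM24h libraries were above all naïve libraries (log2 0.99 ± 0.20, adjusted p = 0.00510, edgeR). *Col5a2* (log2 0.80 ± 0.20), *Col4a2* (0.52 ± 0.17) and *Col7a1*, the collagen of anchoring fibrils, with 3 to 4 counts in naïve libraries and 13 to 42 counts at IM24h, were the others that were higher.

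*Col1a1* measured 383.5, 262.8, 334.5 and 721.7 CPM at IM24h and *Col3a1* 480.8, 329.0, 448.7 and 1018 CPM. These values fell on both sides of the naïve libraries, with library 4 the highest for both. *Col1a1* (log2 -0.07 ± 0.31), *Col1a2* (0.41 ± 0.22), *Col3a1* (0.42 ± 0.34), *Col5a1* (0.38 ± 0.18), *Col4a1* (-0.17 ± 0.17), *Col6a1* (0.64 ± 0.27) and *Col6a2* (-0.69 ± 0.31) did not pass the test (adjusted p = 0.104 to 0.887, edgeR).

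Smooth muscle markers summed to 22950 to 23870 CPM in naïve *ME* and 3435 to 11150 CPM at IM24h, fibroblast markers to 627 to 1255 CPM at IM24h, and endothelial and pericyte markers to 4486 to 4909 and then 1988 to 2482 CPM. Macrophage markers went from 203 to 231 CPM to 554 to 1065 CPM and neutrophil markers from 0.480 to 0.831 CPM to 41.0 to 193.3 CPM. Mesothelial markers went from 135.5 to 167.6 CPM to 7.61 to 119.2 CPM and markers of proliferating cells from 10.4 to 20.0 CPM to 37.7 to 80.6 CPM, and neuronal markers from 505 to 546 CPM to 282 to 474 CPM, all without overlap. No smooth muscle, fibroblast, endothelial or pericyte marker was at 0, and the part of all these markers in the results was not tested. Library totals without TMM gave 16 collagen genes higher and 3 lower, with the median of all genes at 0.66, and the reference genes gave 0 higher and 5 lower, with that median at -0.35. *Col4a2*, *Col5a2*, *Col5a3* and *Col7a1* each lost the call without naïve library 2 or 3 (adjusted p = 0.0545 to 0.169, edgeR, over all losses). *Col4a2*, *Col5a2* and *Col7a1* lost it also without naïve library 1, *Col4a2* without IM24h library 1 or 3, *Col5a3* without IM24h library 2 and *Col7a1* without IM24h library 1 or 2.

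At IM72h in *ME* 18 of 35 collagen genes tested were higher than in naïve mice and 7 lower, where 57.5% of all genes were called, 29.3% higher and 28.3% lower. By the study's rule 8 were higher and 4 lower (17.2% and 15.6% of all genes), and 19 were higher and 7 lower without overlap (33.7% and 25.1% of all genes). The median log2 fold change of the 35 genes was 0.51, against 0.02 for all genes. Of 10 fibrillar genes 7 were higher and 1 lower, of 5 collagen VI genes 3 were higher, of 7 basement membrane genes 3 were higher and 1 lower, of 6 fibril-associated genes 3 were higher and 1 lower, and all 3 transmembrane genes tested were lower. Summed over the 44 genes, the level was 3270 to 3407 CPM in naïve *ME*, 1804 to 2163 CPM in IM3h libraries, 3042 to 5253 CPM in IM24h libraries and 6385 to 7647 CPM in IM72h libraries.

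*Col1a1* measured 1936, 1768, 1733 and 2004 CPM at IM72h, 3.91-fold above naïve *ME* (log2 1.97 ± 0.12, adjusted p = 7.05e-07, edgeR). *Col5a1*, the chain of collagen V that helps start collagen I fibrils, measured 51.6, 50.3 and 61.8 CPM in naïve *ME* and 261.9, 265.6, 234.2 and 286.8 CPM at IM72h (log2 2.16 ± 0.13, adjusted p = 6.00e-07, edgeR). *Col6a3* measured 1296, 1173, 1068 and 953.7 CPM (log2 2.22 ± 0.14, adjusted p = 9.06e-07, edgeR). For these 3 genes the IM72h libraries lay above all libraries of every other *ME* group.

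Partner chains had smaller values. *Col1a2* measured 1338, 1145, 1114 and 1201 CPM (log2 0.69 ± 0.12, adjusted p = 0.000535, edgeR), and *Col6a1* 192.0, 183.8, 183.6 and 250.4 CPM (log2 0.80 ± 0.14, adjusted p = 0.000478, edgeR). Both were above all naïve libraries. *Col3a1* measured 428.8, 497.3, 417.7 and 708.0 CPM, overlapped the naïve libraries and stood at 0.18 ± 0.18 with a 95% interval from -0.17 to 0.53. *Col5a2* (0.40 ± 0.16) and *Col6a2* (0.17 ± 0.26) did not pass the test either (adjusted p = 0.0527 and 0.599, edgeR).

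In collagen IV, *Col4a2* measured 314.4, 324.6 and 318.3 CPM in naïve *ME* and 511.5, 514.0, 484.5 and 789.2 CPM at IM72h (log2 0.75 ± 0.17, adjusted p = 0.00340, edgeR). *Col4a1* measured 465.3, 437.7 and 472.6 CPM and then 406.8, 365.2, 353.1 and 540.6 CPM (log2 -0.24 ± 0.15, adjusted p = 0.195, edgeR). Only *Col4a2* of this pair was without overlap between the groups. The basement membrane collagens *Col15a1* (log2 0.79 ± 0.19) and *Col18a1* (0.64 ± 0.13) were higher and *Col4a4* (-1.09 ± 0.25) was lower.

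*Col16a1*, a fibril-associated collagen, measured 27.9, 33.9 and 30.1 CPM in naïve *ME* and 129.6, 130.3, 122.2 and 95.5 CPM at IM72h (log2 1.86 ± 0.15, adjusted p = 3.17e-06, edgeR). *Col14a1*, which had fallen at IM3h, measured 45.8, 53.5, 49.4 and 48.7 CPM (log2 0.83 ± 0.13, adjusted p = 0.000327, edgeR). Both genes were above all naïve libraries. *Col20a1* (log2 0.96 ± 0.26) was higher and *Col9a2* (-0.79 ± 0.20) lower.

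*Col7a1* went from 3 to 4 counts per library to 55 to 72 counts (log2 3.28 ± 0.38, adjusted p = 3.27e-05, edgeR), and *Col24a1*, a minor fibrillar collagen, from 1 to 4 to 40 to 54 counts (log2 2.90 ± 0.50, adjusted p = 0.000532, edgeR). The chains of collagen VIII differed in direction, with *Col8a1* higher (log2 0.85 ± 0.12, adjusted p = 0.000177, edgeR) and *Col8a2* lower (23.2, 28.4, 32.0 and 33.3 CPM, log2 -1.20 ± 0.16, adjusted p = 7.47e-05, edgeR). *Col5a3* (0.58 ± 0.14), *Col27a1* (0.49 ± 0.15), *Col6a5* (1.72 ± 0.60) and *Col11a2* (11 to 16 counts, against 0 to 3) were higher, and *Col11a1* (-0.91 ± 0.25) was lower. *Col7a1*, *Col24a1*, *Col6a5* and *Col11a2* had few naïve counts and passed the filter on low counts only through the IM72h libraries. Their values are therefore uncertain.

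The transmembrane collagens *Col13a1* (log2 -0.83 ± 0.17), *Col23a1* (-2.03 ± 0.14) and *Col25a1* (-2.17 ± 0.40) were lower at IM72h. *Col23a1* measured 42.6, 47.4 and 38.8 CPM in naïve *ME* and 10.1, 11.8, 10.02 and 13.1 CPM at IM72h, without overlap. The other 9 members, *Col2a1*, *Col4a3*, *Col6a6*, *Col9a3*, *Col10a1*, *Col17a1*, *Col19a1*, *Col22a1* and *Col28a1*, did not pass the filter on low counts and were not tested. Of these, *Col17a1* had 8, 5 and 3 counts in naïve libraries and 2, 2, 0 and 2 at IM72h, and *Col10a1* had at most 3 counts in either group. Both lay lower at IM72h without overlap after scaling, and they are singled out after their values were seen.

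Fibroblast markers summed to 1459 to 1697 CPM at IM72h, with *Cd34*, *Lum*, *Mfap5* and *Pi16* higher and *Dpt* and *Clec3b* lower than in naïve mice. Macrophage markers summed to 203 to 231 CPM in naïve *ME* and 1047 to 1323 CPM at IM72h, and markers of proliferating cells to 10.4 to 20.0 and 283.8 to 353.8 CPM. Glial markers went from 126.0 to 156.6 CPM to 178.7 to 330.6 CPM. Sums were lower for smooth muscle (13530 to 22370 CPM), interstitial cells of Cajal (161 to 189 CPM) and endothelium and pericytes (1594 to 2124 CPM, against 4486 to 4909 CPM). No marker of these lists was at 0. Mesothelial markers went from 135.5 to 167.6 CPM to 43.0 to 108.9 CPM and neutrophil markers from 0.480 to 0.831 CPM to 19.5 to 55.1 CPM, also without overlap. The part of all these markers in the collagen values was not tested. With the reference genes as scale, 6 collagen genes were higher and 11 lower, the median of all genes moved to -0.58 and *Col5a3* and *Col27a1* turned direction, while library totals gave 23 higher and 3 lower, with that median at 0.62. *Col11a2* lost its call without naïve library 1 or 3 or IM72h library 3, *Col6a5* without naïve library 1 or 2 or IM72h library 2, *Col27a1* without naïve library 1 or IM72h library 3 and *Col11a1* without naïve library 3 (adjusted p = 0.0510 to 0.121, edgeR).

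From IM24h to IM72h, with the same Cre line but other library names, 10 of 34 collagen genes tested were higher and 2 lower, where 38.5% of all genes were called, 18.6% higher and 19.9% lower. With the rule of the study 10 were higher and 1 lower (12.7% and 12.5% of all genes), and 10 were higher and 1 lower without overlap (23.3% and 16.3% of all genes). *Col1a1* (log2 2.04 ± 0.28, adjusted p = 0.000311, edgeR), *Col5a1* (1.78 ± 0.16), *Col16a1* (1.88 ± 0.19) and *Col6a3* (1.22 ± 0.19) were higher without overlap. *Col8a2* (2.27 ± 0.32), *Col20a1* (2.14 ± 0.38), *Col27a1* (1.62 ± 0.20), *Col5a3* (1.49 ± 0.21), *Col9a2* (1.28 ± 0.38) and *Col14a1* (1.14 ± 0.32) were also higher, and *Col11a1* (-1.54 ± 0.30) and *Col12a1* (-0.77 ± 0.25) lower. The chains *Col1a2* (0.27 ± 0.19), *Col3a1* (-0.24 ± 0.32), *Col5a2* (-0.40 ± 0.21), *Col4a1* (-0.08 ± 0.18), *Col4a2* (0.22 ± 0.19), *Col6a1* (0.16 ± 0.25) and *Col6a2* (0.86 ± 0.35) did not pass the test. Between the same groups marker sums were higher without overlap for smooth muscle (3435 to 11150 and then 13530 to 22370 CPM), fibroblasts (627 to 1255 and 1459 to 1697 CPM), glia (112 to 153 and 178.7 to 330.6 CPM), epithelium (66.8 to 167.5 and 266.8 to 562.7 CPM) and proliferating cells (37.7 to 80.6 and 283.8 to 353.8 CPM). Those of interstitial cells of Cajal went from 231 to 376 CPM to 161 to 189 CPM, and the part of these markers was not tested. Without IM72h library 2, 3 or 4 the calls of *Col9a2* and *Col12a1* were lost, and that of *Col12a1* also without IM24h library 1 or 3 (adjusted p = 0.0521 to 0.107, edgeR).

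**Figure D2:**
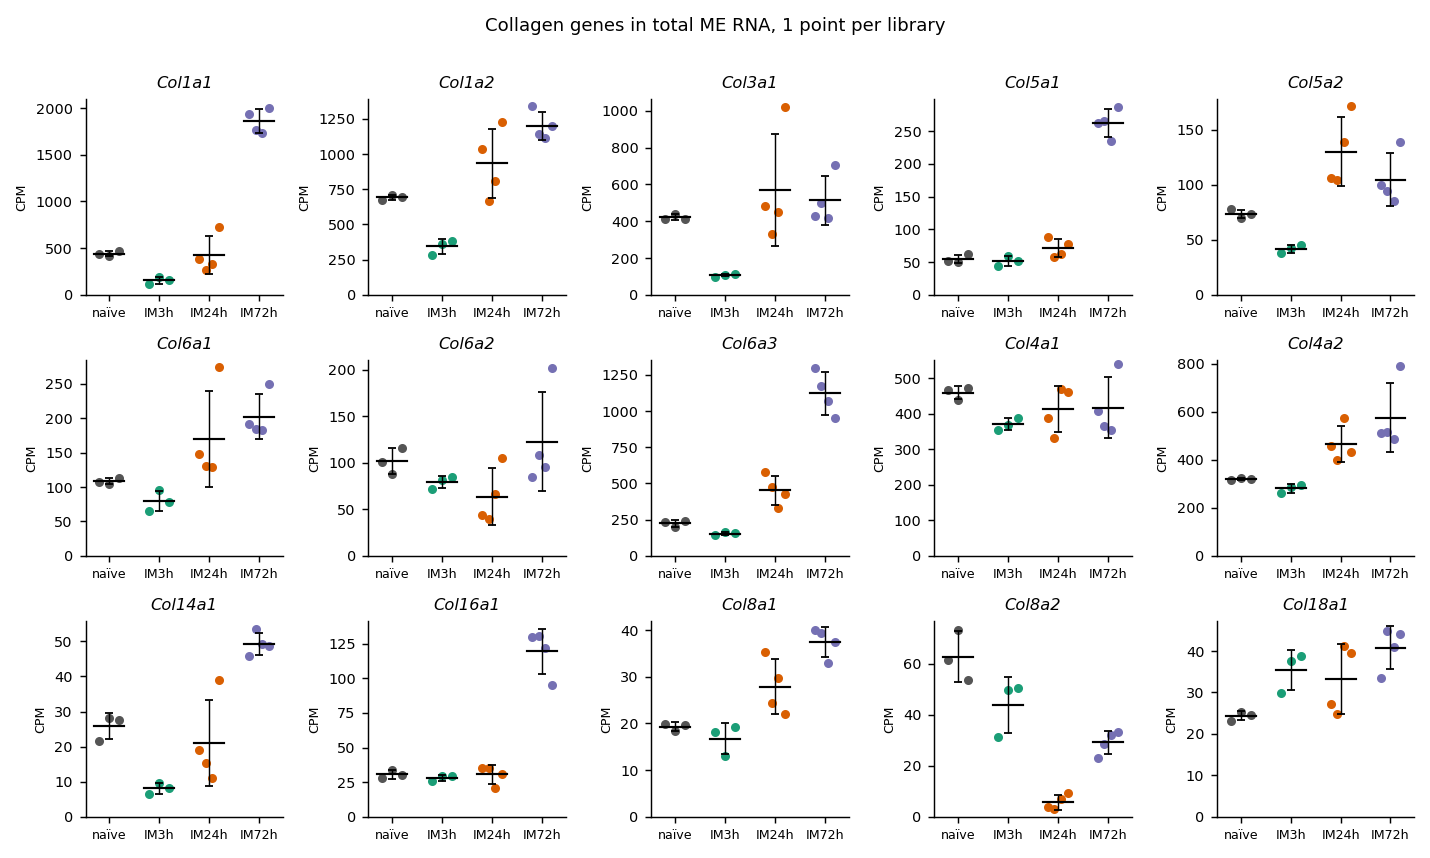
CPM of 15 collagen genes (y axis) in each *ME* library (points) by group, with mean and SD. *Col1a1*, *Col5a1*, *Col6a3* and *Col16a1* are above all other groups at IM72h, and *Col1a1*, *Col3a1* and *Col14a1* are lowest at IM3h.

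**Figure D3:**
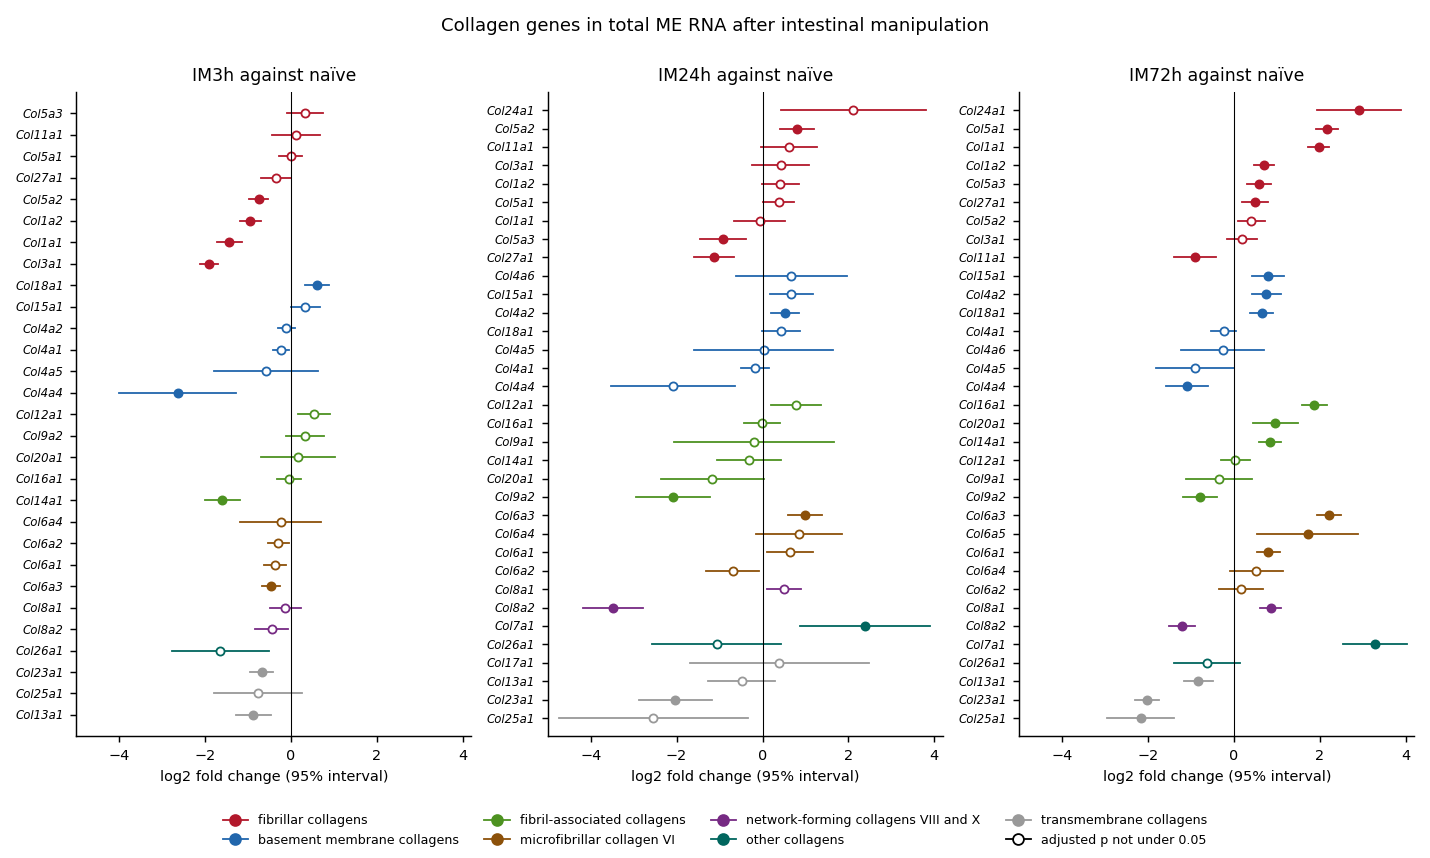
Log2 fold change against naïve *ME* (x axis, shared) with approximate 95% intervals for collagen genes grouped by type, with 29 genes drawn in the IM3h panel and 34 in each of the others. Filled points passed the test, and most fibrillar genes lie left of 0 or near it at IM3h and right of it at IM72h.

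The ratio of the counts of a pair of chains within a library needs no scaling. The 6 ratios were chosen after the values were seen, and only their change between groups is read. *Col1a1*/*Col1a2* was 0.655, 0.586 and 0.678 in naïve *ME*. The IM3h libraries gave 0.428, 0.532 and 0.404, the IM24h libraries 0.370, 0.395, 0.414 and 0.589 and the IM72h libraries 1.45, 1.54, 1.56 and 1.67. The IM72h libraries were above all others, with a change of 2.43-fold from naïve *ME*. *Col1a1*/*Col3a1* went from 0.948 to 1.14 in naïve *ME* to 2.83 to 4.52 at IM72h (3.53-fold), and *Col5a1*/*Col5a2* from 0.664 to 0.844 to 2.06 to 2.81 (3.44-fold).

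In collagen VI, *Col6a3*/*Col6a1* went from 1.91 to 2.17 in naïve *ME* to 3.81 to 6.75 at IM72h (2.69-fold), whereas *Col6a2*/*Col6a1* went from 0.845 to 1.03 to 0.293 to 0.515 at IM24h and 0.443 to 0.807 at IM72h. *Col4a2*/*Col4a1*, the pair with overlapping promoter windows, was 0.676, 0.741 and 0.674 in naïve *ME*. It was 0.737, 0.778 and 0.763 in IM3h libraries, 1.18, 1.2, 1.22 and 0.934 in IM24h libraries and 1.26, 1.41, 1.37 and 1.46 in IM72h libraries. All IM24h and IM72h libraries were above all naïve and IM3h libraries, from which they also differed in Cre line. At IM72h 5 of the 6 ratios were higher and 1 was lower than in naïve *ME*, without overlap. Among all single genes tested in *ME*, 33.7% were higher and 25.1% lower without overlap at IM72h. The shares were 22.7% and 25.8% at IM3h and 20.6% and 20.1% at IM24h. The share over other pairs of genes was not worked out. At IM3h *Col1a1*/*Col3a1* (1.37-fold) and *Col5a1*/*Col5a2* (1.67-fold) were higher and *Col1a1*/*Col1a2* (0.708-fold) lower without overlap, and at IM24h *Col1a1*/*Col3a1* (0.726-fold) and *Col6a2*/*Col6a1* (0.390-fold) were lower and *Col4a2*/*Col4a1* (1.62-fold) higher. In *RiboTag* the libraries did not overlap for *Col1a1*/*Col3a1* at IM3h (1.52-fold), *Col5a1*/*Col5a2* (0.477-fold) and *Col6a3*/*Col6a1* (3.87-fold) at IM24h, and *Col1a1*/*Col1a2* at IM72h (1.52-fold). *Col6a3*/*Col6a1* at IM72h was 15.4, 5.67 and 17.2, against 1.06 to 1.8 in naïve libraries, and IM72h library 3 had no *Col6a1* counts. The other *RiboTag* ratios overlapped, and for *Col6a2*/*Col6a1* at IM24h and IM72h some libraries had no counts of a chain. An exact permutation test of the change from naïve libraries was run for 33 of these ratios over both fractions, and none passed (lowest adjusted p = 0.105, exact permutation test). The lowest unadjusted p was 0.0286 (exact permutation test), the least that groups of 3 and 4 libraries can give. The ratios are therefore given as a description.

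**Figure D4:**
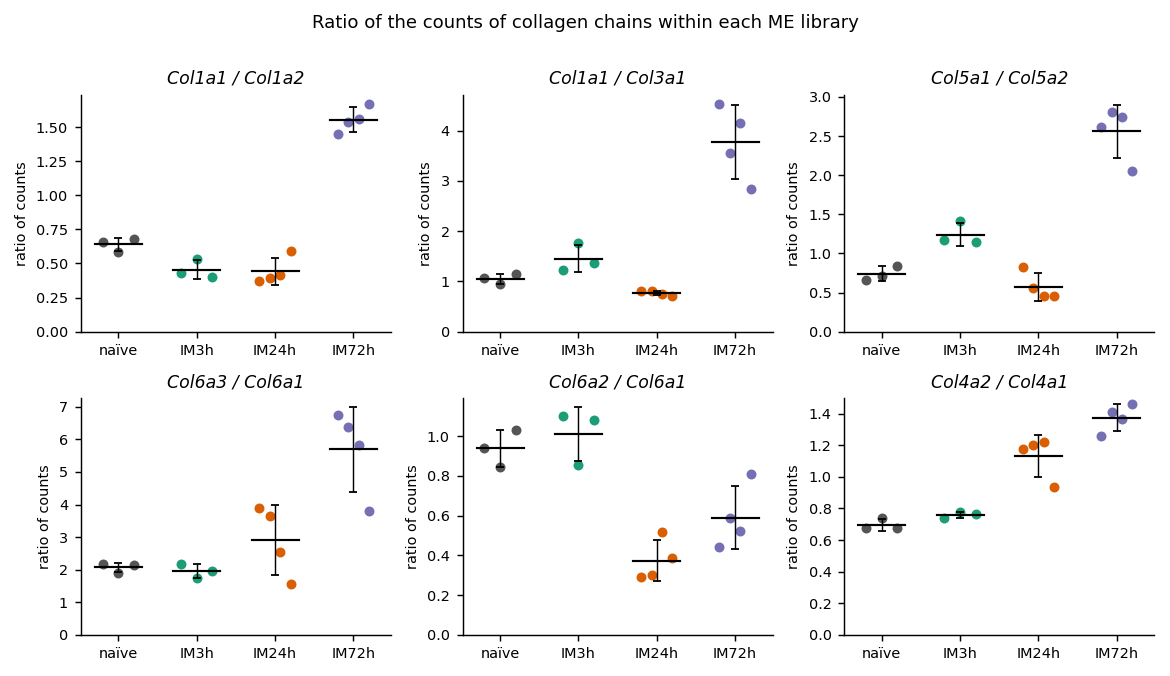
Ratio of counts of a pair of collagen chains (y axis) in each *ME* library (points) by group, with mean and SD. *Col1a1*/*Col1a2*, *Col1a1*/*Col3a1* and *Col5a1*/*Col5a2* are highest at IM72h, and *Col4a2*/*Col4a1* is at most 0.778 in naïve and IM3h libraries and at least 0.934 in IM24h and IM72h libraries.

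The third comparison addressed collagen mRNA on ribosomes of *Sox10*-expressing cells after IM. At IM3h in *RiboTag* 5 of 34 collagen genes tested fell (edgeR, adjusted p under 0.05), where 13.3% of all genes were called, 4.44% lower and 8.86% higher. None rose with edgeR, and 4 did with DESeq2. By the study's rule 4 were higher and 5 lower (11.8% and 8.86% of all genes), and 5 were higher and 8 lower without overlap (14.5% and 15.3% of all genes). Those that fell were *Col3a1*, *Col1a1* and *Col1a2* with *Col8a2* and *Col4a4*.

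*Col3a1* measured 275.9, 256.6 and 247.8 CPM in naïve *RiboTag* and 60.96, 84.3, 84.3 and 42.4 CPM at IM3h (log2 -1.89 ± 0.27, adjusted p = 0.00101, edgeR). *Col1a1* measured 202.3, 188.1 and 235.4 CPM and then 59.2, 80.9, 96.1 and 87.8 CPM (log2 -1.31 ± 0.24, adjusted p = 0.00404, edgeR). *Col1a2* measured 411.5, 334.9 and 525.5 CPM and then 150.2, 197.4, 213.9 and 148.7 CPM (log2 -1.21 ± 0.25, adjusted p = 0.00818, edgeR). No IM3h library reached a naïve library for any of these chains.

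*Col8a2* measured 38.8, 34.9 and 36.8 CPM in naïve *RiboTag* and 7.38, 6.30, 12.4 and 8.36 CPM at IM3h (log2 -2.05 ± 0.34, adjusted p = 0.00229, edgeR). *Col4a4* went from 21.7, 19.4 and 18.4 CPM to 6.59, 6.88, 2.12 and 5.63 CPM (log2 -1.85 ± 0.46, adjusted p = 0.0207, edgeR). Both were without overlap. The genes that stood highest in naïve *RiboTag* relative to *ME* gave no call, with *Col18a1* at 0.08 ± 0.22, *Col9a2* at 0.27 ± 0.25, *Col11a1* at 0.38 ± 0.23 and *Col20a1* at 0.83 ± 0.38 on the log2 scale.

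*Col5a1* (-0.11 ± 0.24), *Col5a2* (0.28 ± 0.26), *Col4a1* (-0.53 ± 0.26), *Col4a2* (-0.48 ± 0.26), *Col6a1* (-0.41 ± 0.28), *Col6a2* (-0.82 ± 0.35) and *Col6a3* (-0.36 ± 0.22) did not pass the test (adjusted p = 0.153 to 0.835, edgeR). *Col24a1* had 0 counts in every naïve *RiboTag* library and 21, 12, 13 and 20 counts at IM3h. That is at least 4.32-fold higher against a floor of 3 counts per library, and the adjusted p was 0.0617 (edgeR). *Col24a1* has no call here and was chosen after its values were seen.

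Fibroblast markers summed to 289 to 412 CPM in naïve *RiboTag* and 146.0 to 229.8 CPM at IM3h, with 1 of 8 tested lower (*Dcn*), and mesothelial markers to 112 to 290.3 and 10.9 to 73.5 CPM, with 4 of 5 tested lower. Markers of interstitial cells of Cajal went from 162 to 228 CPM to 63.7 to 151.4 CPM, and smooth muscle markers, at 2133 to 5495 CPM, overlapped the naïve libraries. No marker of these lists was at 0, and their part in the fall of collagen mRNA was not tested. With all *RiboTag* groups in 1 fit, none of the 5 passed, and at IM3h *Col4a4* lost its call without any 1 of the 3 naïve libraries (adjusted p = 0.0666 to 0.0755, edgeR) and *Col1a2* without naïve library 3 (adjusted p = 0.0575, edgeR).

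At IM24h in *RiboTag* none of 31 collagen genes tested passed with edgeR, where 0.497% of all genes did, 7 had an unadjusted p under 0.05, and DESeq2 called 1 higher and 4 lower. Under the study's rule 1 was higher and 5 lower (6.62% and 5.85% of all genes), and 2 were higher and 9 lower without overlap (6.37% and 15.3% of all genes). In simulated data for this comparison 1.5% of 200 genes changed 4-fold were recovered among 15304 genes. *Col5a2* measured 40.6, 46.3 and 42.9 CPM in naïve *RiboTag* and 89.8, 160.3, 107.3 and 99.6 CPM at IM24h (log2 1.45 ± 0.38, adjusted p = 0.108, edgeR). *Col18a1* measured 278.5, 354.4 and 267.8 CPM and then 149.8, 108.1, 98.7 and 52.2 CPM (log2 -1.50 ± 0.39, adjusted p = 0.102, edgeR). Neither gene had overlapping groups. *Col8a2* (34.9 to 38.8 and then 0 to 4.82 CPM) and *Col9a2* (83.2 to 142.7 and then 0 to 20.4 CPM) had larger falls without overlap. *Col18a1*, *Col8a2* and *Col9a2* have no call here and were chosen after their values were seen. Glial markers summed to 1673 to 2014 CPM in naïve *RiboTag* and 777 to 959 CPM at IM24h, and fibroblast markers to 289 to 412 and 86.5 to 219.2 CPM. Sums were also lower for smooth muscle (5274 to 8088 and then 1490 to 4224 CPM), interstitial cells of Cajal (161.9 to 228.4 and 46.9 to 153.3 CPM) and endothelium and pericytes (903 to 1581 and 451 to 588 CPM). Mesothelial markers (111.8 to 290.3 and 0 to 111.4 CPM) and epithelial markers (72.3 to 137.0 and 29.7 to 64.2 CPM) were lower and those of proliferating cells (13.9 to 26.6 and 33.5 to 176.7 CPM) higher. All of these lists were without overlap, and their part in these values was not tested. *Col1a1* (-0.36 ± 0.35), *Col1a2* (0.17 ± 0.42), *Col3a1* (-0.54 ± 0.65), *Col5a1* (0.35 ± 0.37), *Col4a1* (-0.07 ± 0.33), *Col4a2* (-0.74 ± 0.42), *Col6a1* (-0.88 ± 0.52), *Col6a2* (-0.65 ± 0.97) and *Col6a3* (0.90 ± 0.36) did not pass.

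At IM72h in *RiboTag* 3 of 28 collagen genes tested were lower and none higher with edgeR, where 16.1% of all genes were called, 15.1% lower and 1.05% higher. The log2 fold change of all genes had a median of -0.40. DESeq2 called 2 lower and 0 higher. The study's rule gave 5 lower and 1 higher (19.4% and 3.1% of all genes), and 10 were lower and 1 higher without overlap (28.4% and 2.68% of all genes). With edgeR, 9 were lower with library totals, 11 with the reference genes, 1 with all groups in 1 fit or without AY036118, and 0 without a filter. Without naïve library 3 it was 1. *Col11a2* and *Col28a1* had 0 counts in every IM72h library, at least 1.47-fold and 1.37-fold lower than in naïve *RiboTag* against the floor of 3 counts per library. *Col9a2* had 1122, 729 and 792 counts in naïve libraries and 13, 1, 0 and 0 at IM72h (log2 -5.90 ± 1.49, adjusted p = 0.0257, edgeR), a call that was lost without any 1 of the naïve libraries (adjusted p = 0.0656 to 0.0964, edgeR).

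*Col1a1*, *Col5a1* and *Col6a3*, which were higher at IM72h in *ME*, gave no call in *RiboTag*. *Col1a1* measured 249.7, 434.7, 171.5 and 132.1 CPM, on both sides of the naïve libraries (log2 0.28 ± 0.50, and -1.40 with library totals). *Col5a1* measured 40.6, 42.5, 194.5 and 78.4 CPM (0.41 ± 0.76). *Col6a3* measured 201.2, 191.7, 292.3 and 208.1 CPM, above the 95.1, 99.4 and 121.5 CPM of naïve libraries (1.16 ± 0.48, adjusted p = 0.169, edgeR). Only *Col6a3* of these 3 genes was without overlap. *Col1a2* (-0.24 ± 0.53), *Col3a1* (-0.70 ± 0.56), *Col5a2* (1.0 ± 0.75), *Col4a1* (-0.36 ± 0.55), *Col4a2* (-0.37 ± 0.62), *Col6a1* (-2.27 ± 1.25) and *Col6a2* (-1.30 ± 1.90) did not pass. Glial markers summed to 141.9 to 1435 CPM at IM72h, under all naïve libraries, as did neuronal markers (132.8 to 424.7 CPM), interstitial cells of Cajal (4.67 to 154.0 CPM), endothelium and pericytes (196 to 578 CPM) and mesothelium (0 to 52.9 CPM). Macrophage markers went from 95.8 to 194.9 CPM to 224 to 538 CPM and markers of proliferating cells from 13.9 to 26.6 CPM to 101.4 to 334.9 CPM, without overlap. The part of these markers in the values was not tested. In simulated data for this comparison 0% of 200 genes changed 4-fold were recovered among 13572 genes, while 16.1% of all genes were called in the measured libraries, so the simulated recovery does not describe the test on these data.

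**Figure D5:**
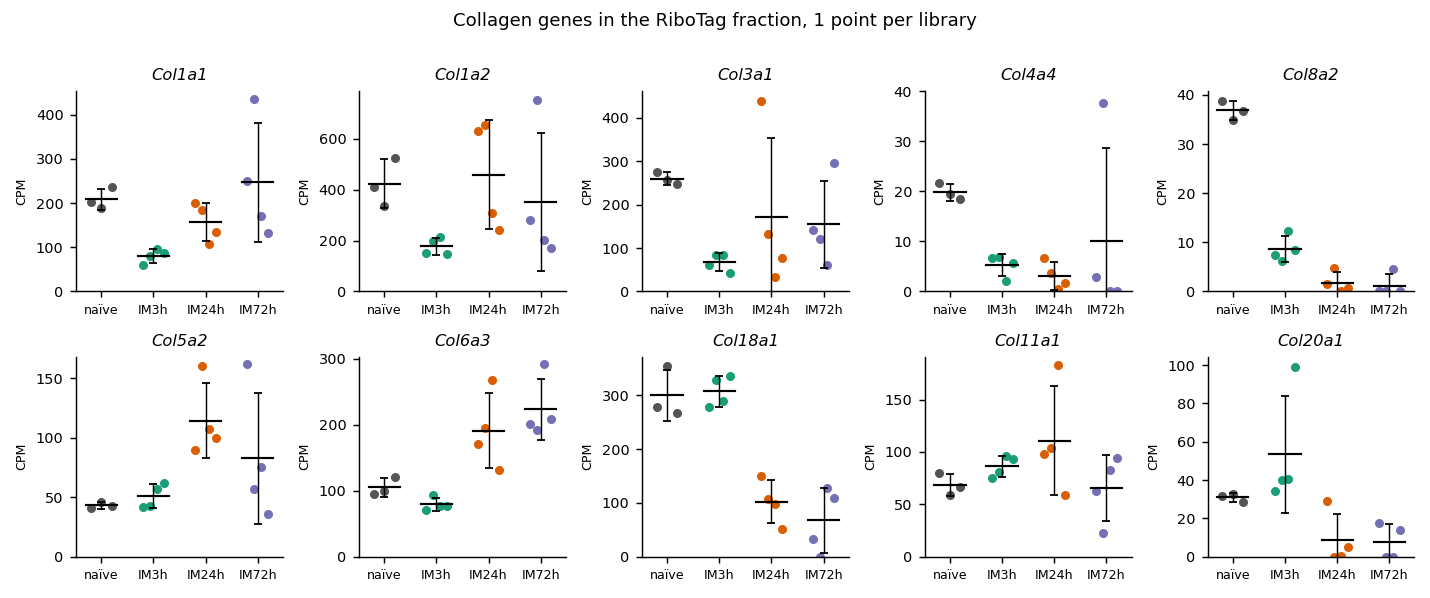
CPM of 10 collagen genes (y axis) in each *RiboTag* library (points) by group, with mean and SD. *Col1a1*, *Col1a2*, *Col3a1*, *Col4a4* and *Col8a2* are lower in all IM3h libraries than in all naïve libraries, and IM72h libraries are widely spread.

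Whether the change after IM differed between the fractions was tested as an interaction. At IM3h none of 35 collagen genes passed with edgeR, where 1.65% of all genes did, 6 had an unadjusted p under 0.05, and DESeq2 called 1 in each direction. The study's rule gave 5 higher and 1 lower (5.94% and 5.22% of all genes). The interaction was 0.10 on the log2 scale for *Col3a1* (95% interval -0.49 to 0.69), 0.21 for *Col1a1* (-0.36 to 0.78) and -0.18 for *Col1a2* (-0.74 to 0.39). The intervals leave room for differences of either sign. At IM24h none of 35 passed with edgeR, where 0.537% of all genes did, 7 had an unadjusted p under 0.05, and DESeq2 called 3 lower. The study's rule gave 7 lower and 0 higher (7.3% and 5.7% of all genes).

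At IM72h 9 of 33 collagen genes had a lower change in *RiboTag* than in *ME* and none a higher one (edgeR, adjusted p under 0.05), where 23.2% of all genes passed, 21.1% lower and 2.12% higher. The study's rule gave 14 lower and 0 higher (28.5% and 4.48% of all genes). The median interaction of all genes was -1.04 on the log2 scale. At IM24h and IM72h the change in *ME* also crosses Cre lines and ranges of library names, and that in *RiboTag* does not. These cannot be told apart from the fraction. The count of 9 became 20 with library totals, 15 with the reference genes and 5 with RLE scaling, 5 without naïve *ME* library 1 and 16 without IM72h *RiboTag* library 2. *Col1a1* stood at -1.90 ± 0.53 (adjusted p = 0.0182, edgeR), *Col6a3* at -1.37 ± 0.35 (adjusted p = 0.0100, edgeR) and *Col5a1* at -2.15 ± 0.68 (adjusted p = 0.0341, edgeR). *Col8a2* lost its call without any 1 of the naïve and IM72h *ME* or naïve *RiboTag* libraries, *Col5a1* without any of these but naïve *RiboTag* library 1, *Col12a1* without any of these but IM72h *ME* library 2 and naïve *RiboTag* libraries 1 and 3, and *Col27a1* without naïve *ME* library 1 or naïve *RiboTag* library 3 (adjusted p = 0.0537 to 0.109, edgeR).

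Genes that modify, cross-link and bind collagen were read beside the chains, against 29.3% of all genes higher and 28.3% lower at IM72h in *ME*. At IM72h in *ME* 10 of 15 genes for prolyl and lysyl modification were higher and none lower, and 4 of 7 cross-linking genes were higher and none lower. *Lox*, the lysyl oxidase that starts cross-links, rose by 3.54 ± 0.19 on the log2 scale (adjusted p = 3.72e-07, edgeR), *Loxl2* by 2.12 ± 0.19 and *Loxl3* by 2.06 ± 0.32. *P4ha3*, a prolyl 4-hydroxylase subunit, rose by 1.63 ± 0.32, *P3h1*, a prolyl 3-hydroxylase, by 1.15 ± 0.17, *P4hb*, the partner subunit, by 1.13 ± 0.12 and *Plod2*, a lysyl hydroxylase, by 0.93 ± 0.15. *P4ha1* (0.10 ± 0.11) did not pass.

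Folding and export genes were divided at IM72h, with 3 of 8 higher and 3 lower, near the 29.3% and 28.3% of all genes. *Fkbp10*, a prolyl isomerase, rose by 1.28 ± 0.14, and *Serpinh1*, the collagen chaperone HSP47, was lower (log2 -0.81 ± 0.12, adjusted p = 0.000213, edgeR). Of 6 propeptide cleavage genes tested, the proteinases *Adamts14*, *Adamts2* and *Bmp1* rose by 2.07 ± 0.49, 1.51 ± 0.16 and 1.31 ± 0.15, and *Pcolce2*, an enhancer of cleavage, was lower (-1.53 ± 0.34). Among 12 collagen-binding proteins 7 were higher, led by *Eln*, *Tnc* and *Lum* (log2 1.47, 1.46 and 1.34), and 4 lower, led by *Fmod*, *Dpt* and *Postn* (-2.23, -1.12 and -0.90).

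Of 13 basement membrane partners tested at IM72h, 6 were higher and 3 lower, where 29.3% of all genes were higher and 28.3% lower. The proteoglycan *Agrn* and the laminin chain *Lamb1* rose by 1.98 and 1.37 on the log2 scale, and *Lama4*, *Lama2* and *Nid1* were lower (-1.75, -1.17 and -0.88). Of 9 collagen receptors tested, *Itga10*, *Lair1* and *Mrc2* were higher (2.29, 1.68 and 1.09) and *Itga1* and *Itga2* lower (-1.43 and -1.19).

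At IM3h in *ME* 5 of the 15 modifying enzymes were higher and 2 lower, where 19.3% of all genes were higher and 13.4% lower. *P4ha3* (log2 1.33 ± 0.42), *P4ha1* (1.12 ± 0.16) and *Plod2* (0.89 ± 0.13) rose at the time when *Col1a1* and *Col3a1* fell, and *P3h4* and *Plod1* fell (-0.86 and -0.74). *Lox* (0.56 ± 0.28) and *Serpinh1* (-0.08 ± 0.13) did not pass. Of 12 collagen-binding proteins *Thbs1* (3.92 ± 0.13) and *Tnc* (1.69 ± 0.14), both matrix glycoproteins of injured tissue, rose, and 4 fell, led by *Fmod* (-2.44 ± 0.48), *Dcn* (-0.77 ± 0.11) and *Eln* (-0.72 ± 0.13). *Loxl1* (0.83 ± 0.13) and *Tgm2* (0.46 ± 0.11) rose and *Pxdn* (-0.52 ± 0.12) fell among 7 cross-linking genes, and *Creb3l1* (0.86 ± 0.23) and *Mia2* (0.43 ± 0.12) rose and *Fkbp10* (-0.80 ± 0.23), *Fkbp14* (-0.79 ± 0.21) and *Sparc* (-0.43 ± 0.11) fell among 8 folding and export genes. *Pcolce* (-0.76 ± 0.14) fell, as did the receptors *Mrc2* (-1.05 ± 0.35) and *Itga1* (-0.60 ± 0.12), while *Itga10* (3.06 ± 0.63) and *Itgb1* (0.34 ± 0.10) rose. Among basement membrane partners *Lamc1* (0.48 ± 0.12) and *Lamb1* (0.43 ± 0.13) rose and *Lama1* (-1.57 ± 0.52) fell.

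At IM24h in *ME* 7 of the 15 modifying enzymes were higher and none lower, where 15.6% of all genes were higher and 13.4% lower. *P4ha3* (log2 1.72 ± 0.49), *Colgalt1*, a collagen galactosyltransferase (1.11 ± 0.19), and *P4hb* (0.86 ± 0.16) rose the most. *Lox* (2.17 ± 0.30, adjusted p = 0.000676, edgeR), *Plod2* (0.72 ± 0.21) and *P4ha1* (0.48 ± 0.16) were higher there, and *Serpinh1* (-0.45 ± 0.20) did not pass. *Loxl2* (1.17 ± 0.24) and *Loxl1* (0.98 ± 0.16) were also higher, as were *Mia2* (0.80 ± 0.15) and *Adamts2* (1.01 ± 0.30). Of 12 collagen-binding proteins 5 were higher, led by *Tnc* (2.66 ± 0.26), *Thbs1* (2.0 ± 0.37) and *Fn1* (1.63 ± 0.24), and 3 lower, *Dpt* (-1.25 ± 0.18), *Dcn* (-0.93 ± 0.30) and *Fmod*. *Fmod* measured 3.32 to 6.36 CPM in naïve *ME* and 0 to 1 counts in an IM24h library, so no fold is given. The receptors *Lair1* (2.55 ± 0.26) and *Itga2* (1.52 ± 0.48) were higher and *Mrc2* (-2.63 ± 0.52) and *Ddr1* (-0.56 ± 0.18) lower. Of 11 basement membrane partners *Lamc1* (1.90 ± 0.15), *Agrn* (0.74 ± 0.21) and *Lamb1* (0.50 ± 0.16) were higher and *Lamb2* (-1.61 ± 0.26) and *Lama4* (-0.71 ± 0.15) lower.

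In *RiboTag* at IM3h, where 8.86% of all genes were higher and 4.44% lower, the modifying enzyme *Plod3* was higher (log2 1.44 ± 0.33) and *P3h4* and *Plod1* lower (-1.61 and -1.17), and *Pcolce* was lower (-1.72). Of 11 collagen-binding proteins tested, *Thbs1* and *Tnc* rose by 2.92 and 2.86 on the log2 scale, as they did in *ME* at IM3h, and *Dcn* was lower (-1.63). The basement membrane partner *Agrn* was lower (-1.27 ± 0.33). *Serpinh1* (-1.04 ± 0.36), *P4ha1* (0.01 ± 0.39), *Plod2* (0.21 ± 0.32) and *Lox* (-1.39 ± 1.47) did not pass (adjusted p = 0.0755 to 0.994, edgeR). In naïve mice *Serpinh1* was lower in *RiboTag* than in *ME* (-1.76 ± 0.26, adjusted p = 0.00185, edgeR), and 7 of 12 collagen-binding proteins were lower and 1, *Tnxb*, higher (2.58 ± 0.35), where 12.7% of all genes were lower and 13.4% higher. *P4ha3* (2.66 ± 0.61), *Fkbp10* (1.67 ± 0.45) and *Sparc* (1.06 ± 0.20) were higher in *RiboTag*, and *Tmem38b* (-1.13 ± 0.26), *Tgm2* (-1.01 ± 0.22) and the receptors *Itgb1* (-1.53 ± 0.16) and *Itga1* (-0.75 ± 0.23) were lower. Of 12 basement membrane partners 4 were higher, led by *Agrn* (3.60 ± 0.26), *Nid2* (2.96 ± 0.82) and *Hspg2* (1.16 ± 0.23), and *Lamb2* (-1.22 ± 0.19) and *Lama4* (-0.97 ± 0.21) were lower.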

How the data were processed

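The deposited tables hold estimated counts per gene (*ME*) or transcript (*RiboTag*), which the authors made from 3′ end reads in Partek Flow after alignment to mm10 with STAR 2.5.3 and quantification against Ensembl release 99. Transcripts were summed by gene symbol and rounded. Libraries were grouped by the group entry of the tables, since their names match no label, and p-values measure the spread between libraries, which the study describes as 3 to 4 mice per condition. The labels list 4 naïve *RiboTag* samples, of which 1 was not analysed here. Each comparison was fitted on all genes with edgeR 4.0.16 (R 4.3.3) using filterByExpr, TMM factors, the quasi-likelihood test and Benjamini-Hochberg adjustment, with calls at an adjusted p under 0.05. DESeq2 1.42.0, other scalings, filters and fits, and leaving out each library were alternatives. The study's call rule is an unadjusted p under 0.05 with a change over 2-fold. The test was tested on simulated data. Totals of 3010306 to 12866062 counts per library limit the precision of low genes. Genes named were members with a call, the main chains of collagens I, III, IV, V and VI, and from each pathway list up to 3 of the largest called rises and falls with *Serpinh1*, *P4ha1*, *Plod2* and *Lox*. Pathway genes are given for *ME* against naïve *ME*, *RiboTag* at IM3h and the naïve fractions, and 1 pathway gene and 1 marker are not reported here. Members, lists and tests were chosen with earlier results of these data known. The authors' own comparison tables, with means, ratios and p-values, were not used.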

Additional observations from a re-analysis of the deposited data

Results flagged for a closer look

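In groups of 4 libraries, 8 of 80 gene and group pairs had 1 library far from the others by Dixon's test, which chance gives in about 1 of 20. In *ME* at IM24h, *Col6a1* measured 274.3 CPM in library 4 and 128.9 to 148.0 CPM in the others. In *ME* at IM72h, *Col24a1* measured 4.644 CPM in library 1 (others 3.03 to 3.287), *Col6a5* 3.059 CPM in library 2 (others 1.077 to 1.29), and library 4 held 789.2 CPM of *Col4a2* (others 484.5 to 514.0) and 250.4 CPM of *Col6a1* (others 183.6 to 192.0). In *RiboTag* at IM72h, *Col9a2* measured 6.068 CPM in library 1 (others 0 to 0.4338), *Col6a3* 292.3 CPM in library 3 (others 191.7 to 208.1) and *Col6a2* 66.36 CPM in library 4 (others 0 to 0.8676).

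At IM72h the change from naïve mice was lower in *RiboTag* than in *ME* for 9 of 33 collagen genes by the interaction test (edgeR), where 21.1% of all genes were lower and 2.12% higher and the median interaction of all genes was -1.04 on the log2 scale. Leaving out 1 library gave 5 to 16 genes, and *Col8a2*, *Col5a1*, *Col12a1* and *Col27a1* each lost the call without some of these libraries. The change in *ME* also crosses Cre lines and ranges of library names, which cannot be told apart from the fraction. On the log2 scale the difference was -1.90 for *Col1a1*, -2.15 for *Col5a1*, -1.37 for *Col6a3*, -1.69 for *Col27a1*, -2.26 for *Col12a1*, -4.40 for *Col8a2* and -5.34 for *Col9a2*. *Col11a2* (-9.43) and *Col6a4* (-7.43) had 0 CPM in every IM72h *RiboTag* library, and their fitted values depend on the prior count and are no bound.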

How the results depend on the processing

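Counts of collagen genes called higher and lower moved with the scaling. With library totals without TMM they were 1 and 15 (*ME* IM3h), 16 and 3 (*ME* IM24h), 3 lower (*ME* IM72h), 9 lower (*RiboTag* IM72h), 0 lower (naïve fractions) and, for the interaction, 1, 4 and 20 lower at IM3h, IM24h and IM72h. With 3 reference genes they were 1 and 19 (*ME* IM3h), 0 higher (*ME* IM24h), 6 and 11 (*ME* IM72h), 3 lower (*RiboTag* IM3h), 11 lower (*RiboTag* IM72h), 3 lower (naïve fractions) and 15 lower (interaction, IM72h), and *Col27a1* (-0.10) and *Col5a3* (-0.0101) turned direction at *ME* IM72h. RLE scaling gave 1 and 5 lower interactions at IM3h and IM72h. The study's call rule gave 1 and 5 (*ME* IM3h), 2 higher (*ME* IM24h), 8 and 4 (*ME* IM72h), 4 higher (*RiboTag* IM3h), 1 and 5 (*RiboTag* IM24h and also IM72h), 1 lower (IM72h against IM24h), 2 lower (naïve fractions) and, for the interaction, 5 and 1 at IM3h, 7 lower at IM24h and 14 lower at IM72h. Without a filter there were 2 higher (*ME* IM24h), 3 higher (*RiboTag* IM3h), 1 lower (*RiboTag* IM24h), 0 lower (*RiboTag* IM72h) and 1 lower (IM72h against IM24h). All groups in 1 fit gave 9 and 8 (*ME* IM24h), 0 lower (*RiboTag* IM3h), 1 lower (*RiboTag* IM72h) and 3 and 0 (naïve fractions). DESeq2 gave 4 higher (*RiboTag* IM3h), 1 and 4 (*RiboTag* IM24h), 1 and 1 (interaction, IM3h) and 3 lower (interaction, IM24h). Leaving out AY036118 gave 1 lower (*RiboTag* IM72h). The cause of these moves was not tested.

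Leaving out 1 library gave 1 to 3 higher and 9 to 10 lower (*ME* IM3h), 1 to 6 and 4 to 10 (IM24h), 15 to 18 and 6 to 8 (IM72h), 9 to 14 and 1 to 3 (IM72h against IM24h), 11 to 15 and 3 to 6 (naïve fractions), 0 to 2 and 3 to 6 (*RiboTag* IM3h), 0 to 1 and 0 to 1 (IM24h), 0 and 1 to 4 (IM72h), and for the interaction 0 to 2 and 0 to 1, 0 and 0 to 3, and 0 and 5 to 16 at IM3h, IM24h and IM72h. For called genes, 613 values under the other alternatives kept direction and call, 91 lost the call and 2 turned, and without 1 library 605 kept and 89 lost it. No paired analysis was possible because the library names carry no replicate number. The median dispersion of the measured counts, which the simulation used, was 1.01 and 1.83 for *RiboTag* IM24h and IM72h and 0.0312 to 0.0922 for the *ME* comparisons. Whether depth sets this was not tested.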
